A study of Homo sapiens with 12 samples.

Results

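The expression of 8 genes that tumor cells use at their surface to restrain immune cells was examined in uterine leiomyosarcoma cells treated with BET bromodomain inhibitors. The 8 were fixed by name: CD274, PDCD1LG2, CD276, CD47, PVR, NECTIN2, NT5E and LGALS9, out of 22784 gene symbols with expression values, and all 8 had values. RNA was sequenced from SK-UT-1 cells, an established human uterine leiomyosarcoma (uLMS) line, after 48 h with vehicle (DMSO), with 5 µM JQ1 or with 5 µM I-BET 762. The labels list 4 samples in each group, and values were analysed for 3 DMSO libraries (replicates 13, 14 and 15), 4 JQ1 libraries (17, 18, 19 and 20) and 3 I-BET 762 libraries (21, 22 and 23). DMSO replicate 16 and I-BET 762 replicate 24 were not analysed here. All groups share the line and the time, the labels give no genetic change, and 1 line stands for the tumor.

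BET proteins bind acetylated histones through their bromodomains and help to activate transcription. JQ1 and I-BET 762 both occupy the acetyl-lysine pocket of these bromodomains. JQ1 carries a thiophene-fused and I-BET 762 a benzene-fused triazolodiazepine core. The genes studied act at different steps of immune evasion. PD-L1 (CD274) and PD-L2 (PDCD1LG2) engage PD-1 on T cells, and interferon gamma is the best known inducer of PD-L1. B7-H3 (CD276) belongs to the same B7 family and has no generally accepted receptor. Galectin-9 (LGALS9) is a sugar-binding protein reported to bind TIM-3 (HAVCR2). PVR (CD155) and NECTIN2 (CD112) are adhesion molecules bound by the inhibitory receptor TIGIT and by the activating receptor DNAM-1 (CD226). NECTIN2 is also bound by the inhibitory receptor PVRIG. CD47 binds SIRPα on macrophages and restrains phagocytosis. CD73 (NT5E) converts extracellular AMP to adenosine, which dampens T cells through adenosine receptors.

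Before the values, the sequences before a RefSeq transcription start of 4 of these genes are shown. They are CD274 and LGALS9, whose windows hold an interferon-type motif and which fell, CD276, which fell, and CD47, which rose. Each moved with at least 1 inhibitor, but so did PVR and NT5E, which rose with JQ1 and whose windows are not printed. A link between motif and response was not tested. RefSeq windows (GRCh38.p14) from 250 bases before to 50 bases after a transcription start were matched for 7 of the 8 genes, in 8 windows, and none was matched for PDCD1LG2. Position 0 is the start base. For CD274, CD276 and CD47 the stretch printed lies outside every exon of Gencode V44. That of CD274 also lies before the annotated gene, whereas those of CD276 and CD47 lie within introns of longer transcripts of these genes. For LGALS9 every base from 250 bases before the start up to the start base lies inside annotated Gencode V44 exons, within the span of the gene. Only the 30 bases up to the start base are given for it. Capitals in CD274 and LGALS9 mark the core of an interferon response element, GAAA and GAAA separated by any 2 bases, which here lies on the opposite strand and so reads TTTC and TTTC. In CD276 and CD47 they mark GC boxes, GGGCGG or CCGCCC. The stretches are chr9:5450292-5450502 (+ strand) for CD274, chr17:27631159-27631188 (+ strand) for LGALS9, chr15:73684133-73684268 (+ strand) for CD276 and chr3:108091032-108091281 (- strand) for CD47.
CD274: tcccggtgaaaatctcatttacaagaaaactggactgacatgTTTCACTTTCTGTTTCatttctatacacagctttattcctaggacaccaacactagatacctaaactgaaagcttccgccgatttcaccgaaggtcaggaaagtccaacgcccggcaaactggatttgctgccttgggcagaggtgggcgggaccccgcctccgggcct
LGALS9: taacagccaagttgctttggTTTCTATTTC
CD276: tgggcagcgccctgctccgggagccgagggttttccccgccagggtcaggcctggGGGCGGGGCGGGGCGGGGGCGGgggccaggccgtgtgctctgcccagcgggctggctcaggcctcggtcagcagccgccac
CD47: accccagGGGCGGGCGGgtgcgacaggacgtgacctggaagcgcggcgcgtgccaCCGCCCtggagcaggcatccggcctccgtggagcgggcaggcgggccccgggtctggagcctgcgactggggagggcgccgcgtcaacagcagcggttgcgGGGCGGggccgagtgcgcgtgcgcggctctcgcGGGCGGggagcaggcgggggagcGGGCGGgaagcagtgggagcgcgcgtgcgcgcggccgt

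The CD274 stretch holds 2 overlapping matches to the interferon response core, at positions -208 to -199 and -202 to -193, and a match to TTCNNNGAA, the pattern of a gamma-activated site, at -125 to -117. LGALS9 holds 1 match to the core, from -9 to the start base. Among all 35116 RefSeq promoter windows of 300 bases, 3.57% hold the interferon response core and 7.66% hold TTCNNNGAA on either strand. None of the other 5 matched genes holds either pattern in its window. GC boxes are common: 45% of all windows hold one, and so do the windows of CD274, CD276, CD47, NECTIN2 and NT5E, with 4 in the printed CD276 stretch and 6 in that of CD47, some overlapping. The E-box CACGTG (7.26% of windows) and an NF-kB pattern (GGG, any 2 bases, TTTCC, in 1.91%) were found in no window of the 7 genes. A match is a description of the letters and not of a bound site.

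Sequencing depth was even, with 35564587 to 39658989 reads on genes per library. JQ1 replicate 18 stood apart from the other JQ1 libraries, as the chi-square between libraries, divided by the number of genes, was 23.2 to 26 in its 3 pairs against 5.33 to 14.5 in the others. Leaving it out changed no call or direction of the 8 genes in any comparison, and moved NECTIN2 most in proportion. The PVR change with JQ1 was then 0.37 on the log2 scale. The deposited values are log2 of a normalized count plus 1, and the values below are normalized counts. Each group was compared by limma on the log2 values over 14839 genes, with Benjamini-Hochberg adjustment over all of them. A gene is said to rise or fall where the adjusted p was under 0.05, and is called a differentially expressed gene (DEG) where its fold change also exceeded 1.5. The labels do not say that the libraries came from separate cultures, so p-values measure the spread between these libraries. All fold changes are on the log2(normalized count + 1) scale, which understates the change of low genes. Bulk RNA does not separate fewer expressing cells from less RNA per cell.

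The label of the cells was checked against marker genes. Smooth muscle markers summed to 20923 to 21518 normalized counts in DMSO, 10871 to 11519 with JQ1 and 12192 to 12764 with I-BET 762. Of the 8 measured, 7 fell with JQ1 and 6 with I-BET 762, among them DES (desmin), TAGLN (transgelin) and CNN1 (calponin). SMTN, on the same list, rose with both, by 0.19 and 0.20 on the log2 scale. For this list and those below, the share of all genes tested that fell was 35.6% with JQ1 and 31.3% with I-BET 762. MYH11 was not analysed here. Of 12 immune cell markers measured, 7 had at most 3 reads in every library, and the list summed to 77.4 to 103 normalized counts in DMSO, 53.8 to 71 with JQ1 and 33.5 to 53.1 with I-BET 762. The 3 with a DMSO mean of at least 10 were ITGAM (29.5), CD14 (28.9) and CD8A (24.6). ITGAM and CD8A fell with both inhibitors, and CD14 passed the test with neither. The pan-leukocyte gene PTPRC, much of whose exon sequence is also present on other contigs, was at 0 in every DMSO and JQ1 library. Endothelial markers summed to at most 12.2 in any library, and none passed the filter on low values. Epithelial markers were present and lower with both inhibitors (1241 to 1313 in DMSO, 518 to 612 with JQ1 and 509 to 550.4 with I-BET 762, where 5 and 6 of 6 tested fell, 1 of which, KRT7, entered the test only through DMSO). The part of these marker changes in the results below was not tested.

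With JQ1, 3 of the 8 genes rose (CD47, PVR and NT5E), 3 fell (PDCD1LG2, CD276 and LGALS9) and 2 did not pass the test (CD274 and NECTIN2). Over all genes tested, 36% rose and 35.6% fell with JQ1, so 6 of 8 is close to the 71.7% that changed in either direction. The DEG call was met by the 3 that fell and by none that rose, against 36.1% of all genes (13.3% higher and 22.8% lower). The same 6 genes had libraries that did not overlap those of DMSO, 3 higher and 3 lower, against 68.4% of all genes (34.1% higher and 34.3% lower). With I-BET 762, 1 of the 8 rose (CD47), 4 fell (CD274, PDCD1LG2, CD276 and LGALS9) and 3 did not pass the test (PVR, NECTIN2 and NT5E), against 61.1% changed among all genes (29.9% rose and 31.3% fell). CD274, PDCD1LG2 and LGALS9 were DEGs there, all lower, against 26.9% of all genes (8.96% higher and 17.9% lower). The libraries of 5 of the 8, 1 higher and 4 lower, did not overlap those of DMSO, against 71% of all genes (34.8% higher and 36.2% lower). PDCD1LG2 and LGALS9 reached 10 normalized counts in the DMSO libraries alone, and so entered the test only through the group in which they were high. Without those 2, JQ1 raised 3 and lowered 1 of 6, and I-BET 762 raised 1 and lowered 2 of 6. Of these 6, 1 was a DEG with each inhibitor, CD276 with JQ1 and CD274 with I-BET 762, both lower. With JQ1, 3 of the 6 lay wholly above the DMSO libraries and 1 wholly below, and with I-BET 762, 1 above and 2 below. For these 6 the JQ1 median was 0.09 and the I-BET 762 median -0.05 on the log2 scale (-0.29 for both when the 2 are kept), beside 0.0076 for JQ1 and -0.00063 for I-BET 762 over all genes tested. Scaling the libraries to equal totals would move the median of all genes by about -0.18 with JQ1 and -0.10 with I-BET 762, so all changes are given relative to the authors' scaling, and the genes whose call or direction that scaling alters are named with their values. Both inhibitors were compared with the same 3 DMSO libraries.

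**Figure D1:**
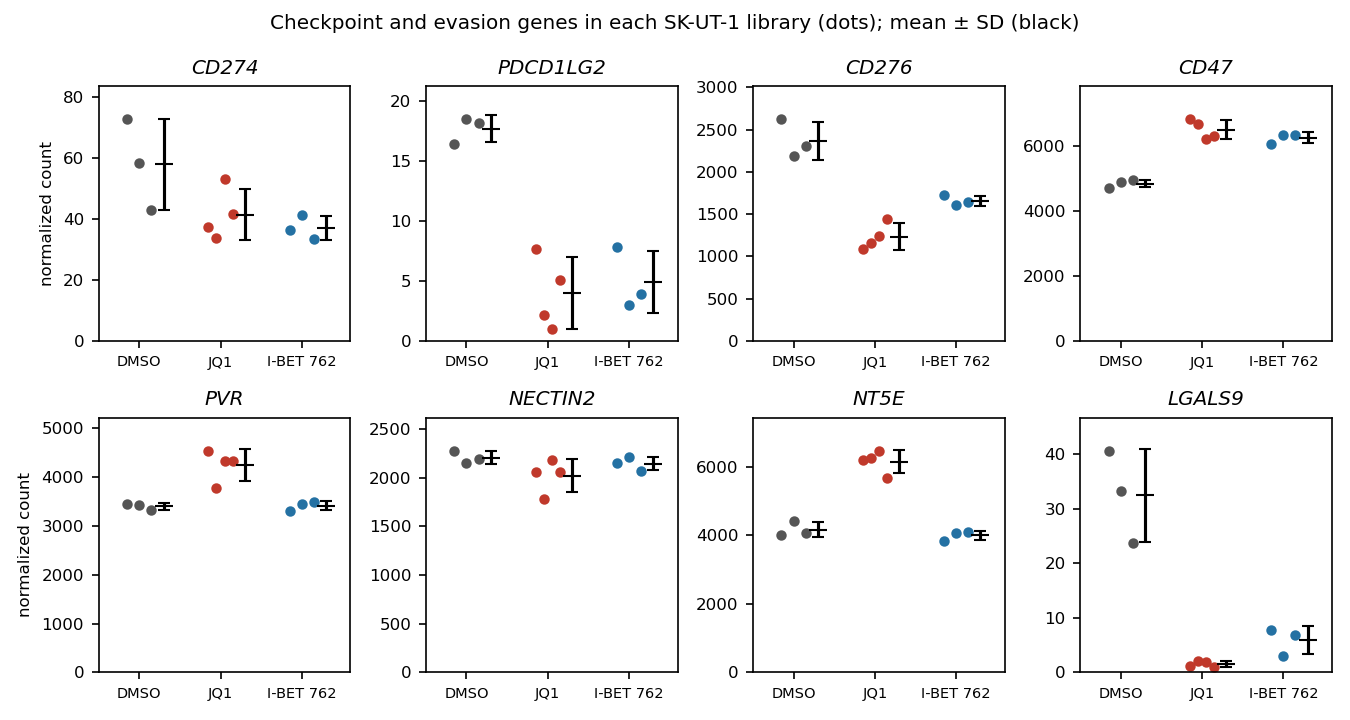
Normalized counts of the 8 genes (vertical axes, starting at 0, with a separate scale for each gene) in each library of SK-UT-1 cells treated with DMSO (grey, n = 3), JQ1 (red, n = 4) or I-BET 762 (blue, n = 3); black bars give the mean ± SD. NT5E and PVR stand higher in the JQ1 libraries than in the other groups, CD47 is higher with both inhibitors, and CD276, PDCD1LG2 and LGALS9 are lower with both.

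Among the ligands of PD-1, CD274 (ENSG00000120217.14, chr9:5450503-5470566, + strand, positions in Gencode V44 on GRCh38) was expressed at a low level. Its normalized count was 72.6, 58.2 and 42.8 in DMSO replicates 13, 14 and 15, from 47 to 75 reads each. The JQ1 libraries 17 to 20 gave 37.4, 33.7, 53 and 41.6, and the I-BET 762 libraries 21 to 23 gave 36.4, 41.1 and 33.5. The JQ1 values overlapped those of DMSO, whereas all 3 I-BET 762 libraries lay below the lowest DMSO library. The log2 fold change with JQ1 was -0.46 (SE 0.22, 95% interval -0.92 to -0.003) and did not pass the test (limma adjusted p = 0.0661). With I-BET 762 CD274 fell by 0.60 on the log2 scale (SE 0.23, limma adjusted p = 0.0321), a 1.52-fold decrease. The I-BET 762 call rested on single libraries: the adjusted p was 0.158 without DMSO replicate 13, 0.0776 without DMSO replicate 14, 0.0714 without I-BET 762 replicate 21 and 0.0965 without I-BET 762 replicate 23. In the other direction, the JQ1 comparison passed without DMSO replicate 15 (log2 fold change -0.66, adjusted p = 0.0193) or without JQ1 replicate 19 (-0.58, adjusted p = 0.0279).

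PDCD1LG2 (ENSG00000197646.8, chr9:5510531-5571282, + strand) starts 39964 bases beyond the end of CD274 on the same strand, and it was lower still. The DMSO libraries gave 16.5, 18.5 and 18.2 normalized counts. The JQ1 libraries gave 7.69, 2.18, 1 and 5.07, and the I-BET 762 libraries 7.87, 3.01 and 3.94. No treated library reached the lowest DMSO value. The log2 fold change was -2.13 with JQ1 (SE 0.51, limma adjusted p = 0.00141) and -1.74 with I-BET 762 (SE 0.54, limma adjusted p = 0.0113). PDCD1LG2 entered the test only through DMSO, the group in which it was high, so these p-values are not independent of the filter. These folds rest on few reads, 57 over the DMSO libraries and 15 over each treated group. The exact 95% counting interval of the DMSO level over the treated level ran from 2.52 to 8.58 for JQ1 (ratio 4.51) and from 2.0 to 6.81 for I-BET 762 (ratio 3.58). Such intervals cover counting error only.

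The third B7 family gene, CD276 (ENSG00000103855.18, chr15:73683966-73714514, + strand), was far more abundant and fell with both inhibitors. Its normalized count was 2624, 2189 and 2301 in DMSO. With JQ1 it was 1088, 1161, 1246 and 1446, and with I-BET 762 it was 1724, 1604 and 1649.9. The 3 groups did not overlap, with DMSO highest and JQ1 lowest. CD276 fell by 0.94 on the log2 scale with JQ1 (SE 0.08, limma adjusted p = 5.07e-08), a 1.92-fold decrease. With I-BET 762 it fell by 0.51 (SE 0.09, limma adjusted p = 0.00014), which at 1.43-fold did not meet the DEG threshold. CD276 was the only one of the 6 genes above 10 normalized counts in every library that was a DEG with JQ1.

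LGALS9 (ENSG00000168961.17, chr17:27629798-27649560, + strand) had the largest fold change of the 8 genes with either inhibitor. DMSO libraries gave 40.7, 33.3 and 23.7 normalized counts. With JQ1 the values were 1.1, 2.18, 2 and 1.01, that is 1 or 2 reads per library, and with I-BET 762 they were 7.87, 3.01 and 6.89. No library overlapped between any pair of groups. The log2 fold change was -3.70 with JQ1 (SE 0.43, limma adjusted p = 1.04e-06) and -2.32 with I-BET 762 (SE 0.46, limma adjusted p = 0.000376). LGALS9 entered the test only through DMSO, the group in which it was high, so these p-values are not independent of the filter. At 6 JQ1 reads in all against 104 in DMSO, the DMSO level was 20.6 times that of JQ1, with an exact 95% counting interval from 9.14 to 57.4. For I-BET 762, with 18 reads, the ratio was 5.45 (3.28 to 9.55). Exact copies of 14 of 72 stretches of 75 bases sampled along the LGALS9 exons, 19.4%, occur elsewhere in the genome, so part of its reads could have been left out or shared by the counting.

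The ligands of TIGIT and DNAM-1 differed in their response. PVR (ENSG00000073008.16, chr19:44643798-44666162, + strand) gave 3443, 3426 and 3318 normalized counts in DMSO. The JQ1 libraries gave 4535, 3769, 4327 and 4326, and the I-BET 762 libraries 3307, 3439 and 3485. All 4 JQ1 libraries lay above every DMSO and I-BET 762 library, while DMSO and I-BET 762 overlapped. PVR rose by 0.32 on the log2 scale with JQ1 (SE 0.06, limma adjusted p = 0.000115), a 1.25-fold increase under the DEG threshold. With I-BET 762 the log2 fold change was 0.01 (95% interval -0.12 to 0.14, limma adjusted p = 0.939). The increase with JQ1 depended on the scaling: with libraries set to equal totals it was 0.13 (adjusted p = 0.103). Exons of other genes on the same strand, CEACAM19 among them, cover 20.6% of the PVR exon bases. CEACAM19 itself was at 42 ± 8.84 (SD, n = 3) normalized counts in DMSO, 29.9 ± 6.59 (SD, n = 4) under JQ1 and 31.3 ± 10.6 (SD, n = 3) under I-BET 762.

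NECTIN2 (ENSG00000130202.10, chr19:44846175-44889223, + strand) begins 180012 bases past the end of PVR and showed no change that passed the test. DMSO libraries gave 2275, 2145 and 2186 normalized counts. JQ1 libraries gave 2058, 1782, 2184 and 2058, and I-BET 762 libraries 2154, 2209 and 2069. The groups overlapped in both comparisons with DMSO. The log2 fold change was -0.13 with JQ1 (95% interval -0.26 to 0.005, limma adjusted p = 0.0777) and -0.04 with I-BET 762 (95% interval -0.18 to 0.10, limma adjusted p = 0.636). Leaving out JQ1 replicate 18, the lowest of its group, gave -0.07 (adjusted p = 0.195). Without JQ1 replicate 19 the JQ1 value was -0.17 and passed (adjusted p = 0.0288), and with equal library totals it was -0.31 (adjusted p = 0.00167).

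CD47 (ENSG00000196776.17, chr3:108043091-108091862, - strand), the ligand of SIRPα, was the only one of the 8 genes that rose with both inhibitors. Its normalized count was 4700.2, 4872 and 4931 in DMSO. With JQ1 it was 6812, 6665, 6194 and 6296, and with I-BET 762 it was 6055, 6340.2 and 6335. Every treated library exceeded every DMSO library, and the treated groups overlapped each other. CD47 rose by 0.42 on the log2 scale with JQ1 (SE 0.05, limma adjusted p = 5.69e-07) and by 0.37 with I-BET 762 (SE 0.05, limma adjusted p = 9.68e-06). At 1.34-fold and 1.29-fold neither met the DEG threshold. CD47 kept its rise with equal library totals, at 0.24 with JQ1 and 0.27 with I-BET 762.

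NT5E (ENSG00000135318.12, chr6:85449584-85495791, + strand), which encodes CD73, rose with JQ1. DMSO libraries gave 4009, 4415 and 4081 normalized counts. With JQ1 they were 6206, 6266, 6471 and 5669, and with I-BET 762 they were 3846, 4059 and 4085. The JQ1 libraries stood apart from both other groups, which overlapped. The log2 fold change was 0.56 with JQ1 (SE 0.05, limma adjusted p = 1.09e-07), a 1.48-fold increase just under the DEG threshold, and -0.06 with I-BET 762 (95% interval -0.18 to 0.06, limma adjusted p = 0.38). Without DMSO replicate 14, or without JQ1 replicate 20, the JQ1 value was 0.60 and met that threshold. With equal library totals the JQ1 value was 0.38, and that of I-BET 762 was -0.16 with an adjusted p of 0.0186.

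**Figure D2:**
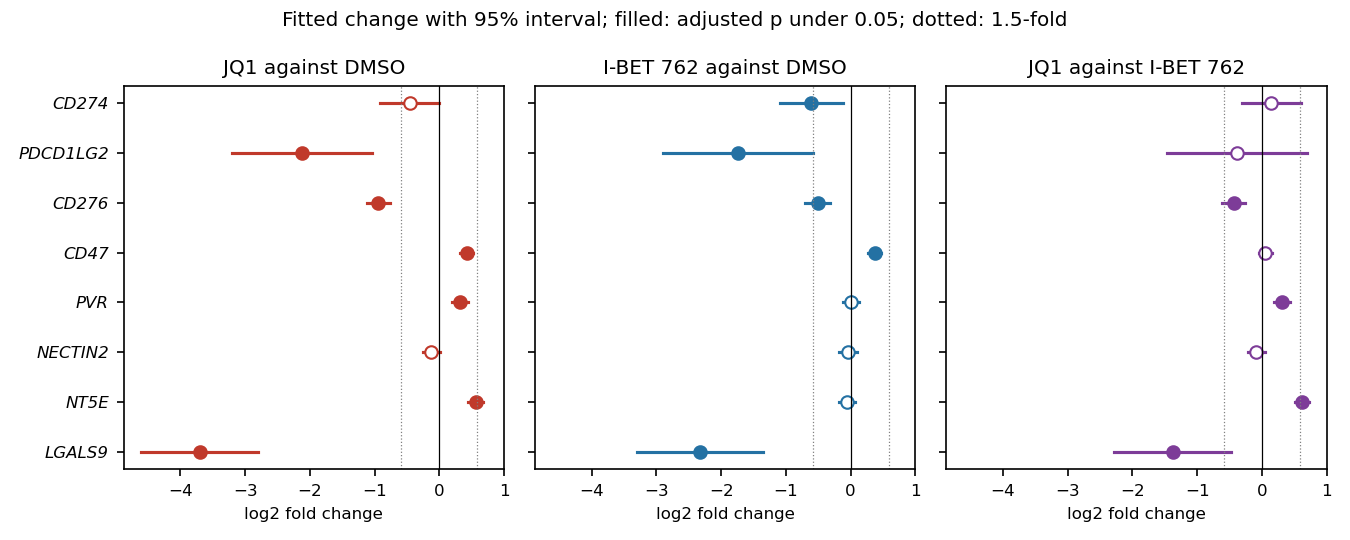
Fitted log2 fold change (horizontal axis) of the 8 genes with its 95% interval, for JQ1 against DMSO, I-BET 762 against DMSO and JQ1 against I-BET 762; filled points have a limma adjusted p under 0.05 and dotted lines mark 1.5-fold. CD47 lies to the right of 0 for both inhibitors, PVR and NT5E lie to the right for JQ1 and at 0 for I-BET 762, and LGALS9 lies farthest to the left in all 3 comparisons.

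JQ1 and I-BET 762 were then compared directly, at the same dose and time. This is the 1 pair of compounds in the study, and p-values were adjusted over all 14839 genes. Of the 8 genes, 2 were higher with JQ1 (NT5E and PVR), 2 were lower (CD276 and LGALS9) and 4 did not pass the test, whereas 27.3% of all genes passed in either direction (13.3% higher and 14% lower). The DEG call was met by NT5E, higher with JQ1, and LGALS9, lower with JQ1, against 5.31% of all genes (1.73% higher and 3.59% lower). LGALS9 and PDCD1LG2 entered this comparison too only through DMSO, a group outside it, and of the other 6 genes 1 was a DEG, higher with JQ1. The libraries of the same 4 genes did not overlap between the inhibitors, against 33.8% of all genes (17.5% higher and 16.3% lower). NT5E was 1.54-fold higher with JQ1, at 6153 ± 342 (SD, n = 4) against 3997 ± 131 (SD, n = 3) normalized counts (log2 difference 0.62, 95% interval 0.51 to 0.73, limma adjusted p = 1.17e-06). With equal library totals the difference was 0.53, under the DEG threshold. PVR was higher with JQ1 by 0.31 on the log2 scale (0.19 to 0.43, limma adjusted p = 0.000958). The difference in CD276 was -0.43 (-0.61 to -0.25, limma adjusted p = 0.00147), lower with JQ1.

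For LGALS9 the direct log2 difference was -1.38 (95% interval -2.29 to -0.47, limma adjusted p = 0.0256), and it did not pass without I-BET 762 replicate 21 (-1.16, adjusted p = 0.118) or without I-BET 762 replicate 23 (-1.24, adjusted p = 0.0953). The other 4 genes gave intervals that include 0. CD47 had the narrowest, -0.04 to 0.15 around 0.06 (limma adjusted p = 0.406), and NECTIN2 ran from -0.22 to 0.04 around -0.09 (limma adjusted p = 0.313). CD274 ran from -0.31 to 0.60 around 0.14 (limma adjusted p = 0.66). PDCD1LG2 ran from -1.47 to 0.69 around -0.39 (limma adjusted p = 0.611), and at its few reads a difference of 1.5-fold was not detectable.

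Levels were compared between genes per kilobase of exon, using the Gencode V44 exon union. That union holds the exons of every annotated transcript, used or not in these cells, so the order depends on it. In DMSO the order from high to low was NT5E, NECTIN2, CD47, CD276, PVR, CD274, PDCD1LG2 and LGALS9. NT5E stood at 920 ± 47.8 (SD, n = 3) normalized counts per kb, and NECTIN2 and CD47 followed at 588 ± 17.8 and 587 ± 14.5, which overlapped. CD276 came next at 433 ± 41.1 and PVR at 326 ± 6.51, and their libraries did not overlap. Exons of other genes on the same strand cover 20.6% of the PVR exon bases, and reads there could have been left out by the counting. The level of PVR may thus be understated, and its order with CD276 in DMSO is uncertain. A gap followed, since PVR exceeded CD274 (14.1 ± 3.64 per kb) 23.1-fold. PDCD1LG2 (7.29 ± 0.45) and LGALS9 (5.69 ± 1.49) were lowest and overlapped each other. The 5 abundant genes encode CD73, the nectin-type ligands, CD47 and B7-H3, while the PD-1 ligands and galectin-9 were scarce in every group.

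The order changed with treatment among the abundant genes. With JQ1 it was NT5E (1357 ± 75.5 per kb, SD, n = 4), CD47 (788 ± 35.7), NECTIN2 (540.0 ± 45.3), PVR (407 ± 31.5) and CD276 (225 ± 28.2), with no overlap between neighbours. CD276, above PVR in DMSO on the full exon union, was below it with JQ1, where PVR exceeded it 1.80-fold. With I-BET 762 the order was the same, and the step from PVR (327 ± 8.84, SD, n = 3) to CD276 (303 ± 11) was 1.08-fold without overlap. LGALS9 had the lowest mean in both, at 0.275 ± 0.105 per kb with JQ1, below every PDCD1LG2 value, and 1.04 ± 0.45 with I-BET 762, where it overlapped PDCD1LG2 (2.03 ± 1.06).

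**Figure D3:**
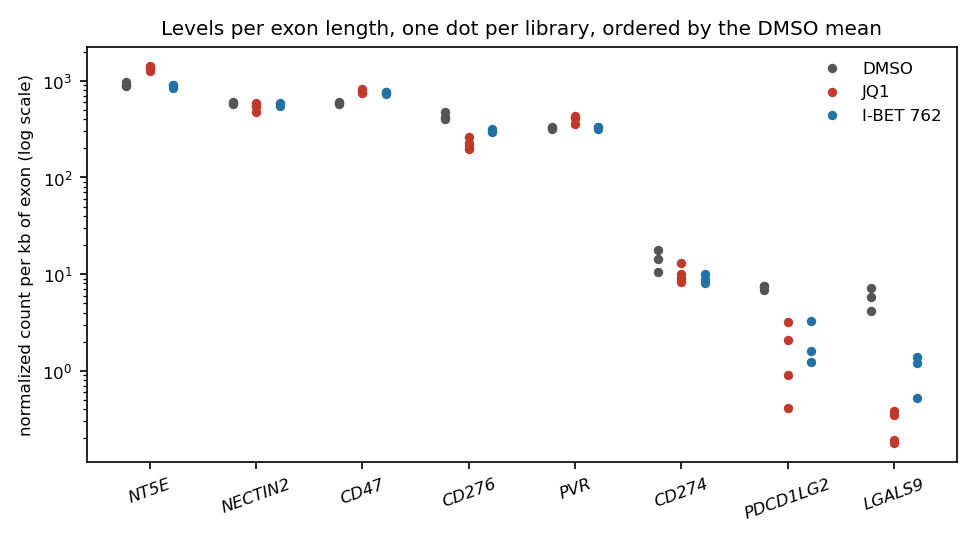
Normalized count per kilobase of exon (vertical axis, log scale) for each gene, ordered by its DMSO mean, with 1 dot per library in DMSO (grey), JQ1 (red) and I-BET 762 (blue). NT5E, NECTIN2, CD47, CD276 and PVR lie between 198 and 1428, and CD274, PDCD1LG2 and LGALS9 lie at or below 17.7 in every library.

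Other genes of these pathways were read from lists fixed by name, in the same fit, and no list was tested as a set. Over all genes tested, 36% rose and 35.6% fell with JQ1, and 29.9% rose and 31.3% fell with I-BET 762. DEGs made up 36.1% of all genes with JQ1 and 26.9% with I-BET 762. Levels of the listed genes are given as mean ± SD, with n = 3 for DMSO and I-BET 762 and n = 4 for JQ1. Genes with copies of at least 50% of their sampled exon stretches on other primary or alternate contigs, most HLA class I genes among them, were left out of the counts because their reads cannot be placed with certainty. Of 21 other checkpoint ligands and immune regulators, among them the enzyme IDO1, which is no ligand, 11 were counted. With JQ1, 4 rose and 5 fell, and with I-BET 762, 3 rose and 6 fell, with medians of -0.16 and -0.23 on the log2 scale. BTN3A1 (butyrophilin 3A1, which takes part in the activation of gamma delta T cells) fell from 1799.9 ± 7.79 normalized counts in DMSO to 536 ± 74.2 under JQ1 and 845 ± 34.8 under I-BET 762. VSIR, which encodes the inhibitory ligand VISTA, rose by 0.73 and 1.08 on the log2 scale, and LGALS3 (galectin-3, another sugar-binding protein) by 0.98 and 0.76. IDO1, the tryptophan-degrading enzyme induced by interferon, had 71.9 ± 14.1 in DMSO, 6.08 ± 1.54 with JQ1 and 5.27 ± 3.14 with I-BET 762, and like LGALS9 it entered the test only through DMSO.

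Receptors of the 8 genes were listed as 10 genes, of which 8 had values (PDCD1 and SIRPG were not analysed here) and 4 passed the filter on low values. Of these, 3 fell and none rose with either inhibitor, with a median of -1.20 for JQ1 and -0.92 for I-BET 762. The shares that fell over all genes were 35.6% with JQ1 and 31.3% with I-BET 762. SIRPA, the receptor of CD47, went from 769 ± 57 normalized counts in DMSO to 225 ± 30.6 under JQ1 and 284 ± 23.1 under I-BET 762, log2 changes of -1.77 and -1.44. ADORA2B, an adenosine receptor, fell by 1.24 and 1.09. SIRPA and its ligand moved in opposite directions in the same libraries.

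Among the 14 counted genes of interferon gamma signaling and PD-L1 regulation, 8 rose and 5 fell with JQ1, and 6 rose and 6 fell with I-BET 762. Of all genes, 71.7% and 61.1% changed in either direction. The DEGs among these 14 were JAK1, a kinase of the interferon receptors (0.92 and 0.81), and IFNGR1, the ligand-binding chain of the interferon gamma receptor (0.71 and 0.61). IFNGR2, the other chain of that receptor, was not counted, as 92.9% of its sampled stretches are copied on alternate contigs. Its log2 change was -1.14 with JQ1 (limma adjusted p = 0.027) and -0.94 with I-BET 762 (limma adjusted p = 0.0909). IRF1, the transcription factor that acts on the PD-L1 promoter downstream of interferon gamma, and CMTM6, which keeps PD-L1 at the cell surface, are added although they were chosen after their values were seen. IRF1 fell by 0.49 with JQ1 and by 0.44 with I-BET 762 (limma adjusted p = 1.31e-06 and 1.26e-05), and CMTM6 rose by 0.53 and 0.39 (limma adjusted p = 3.96e-07 and 3.73e-05). CMTM4, on the same list and also named after its values were seen, went the other way. It fell by 0.53 with JQ1 and by 0.38 with I-BET 762 (limma adjusted p = 3.82e-08 and 7.47e-06).

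CD47 partners gave 3 genes that rose and 4 that fell of 8 with JQ1, and 2 and 4 with I-BET 762. Changes in either direction were common, at 71.7% of all genes with JQ1 and 61.1% with I-BET 762. THBS1 (thrombospondin-1, a secreted ligand of CD47) fell from 9101 ± 237 normalized counts in DMSO to 2080.4 ± 172 under JQ1 and 1709 ± 221 under I-BET 762. ITGB3, a subunit of the integrin that associates with CD47, rose from 32.4 ± 2.14 to 165 ± 10.6 and 157 ± 5.38. LRP1, a receptor for the pro-phagocytic signal calreticulin, fell by 1.42 and 1.26 on the log2 scale.

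In the extracellular adenosine list, 2 of 7 counted genes rose and 4 fell with each inhibitor, beside 71.7% (JQ1) and 61.1% (I-BET 762) of all genes changed. ENPP1, which produces AMP upstream of CD73, rose from 48.1 ± 7.87 normalized counts in DMSO to 191 ± 19.3 under JQ1 and 144 ± 9.08 under I-BET 762. ALPL, another phosphatase that can use AMP, fell by 2.63 and 1.82 on the log2 scale. SLC29A2, a nucleoside transporter, fell by 1.29 and 0.80, and ADA, which removes adenosine, fell by 0.90 with each.

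The MHC class I list could be counted for 6 of 17 genes, of which 5 fell with JQ1 and 4 with I-BET 762 and none rose, with medians of -1.31 and -1.04. The aminopeptidases that trim peptides for MHC class I were among them: ERAP2 stood at 5686 ± 281 normalized counts in DMSO, 1064 ± 45.4 under JQ1 and 1410.2 ± 63.3 under I-BET 762, and ERAP1 fell by 1.48 and 1.23 on the log2 scale. PSMB10, an immunoproteasome subunit, fell by 1.37 and 1.10. Of 4 counted ligands of the activating NK cell receptor NKG2D, 3 fell and none rose with either inhibitor, among them RAET1G (-1.45 and -1.01) and ULBP1 (-0.83 and -1.11). For both lists, the share of all genes that fell was 35.6% with JQ1 and 31.3% with I-BET 762.

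**Figure D4:**
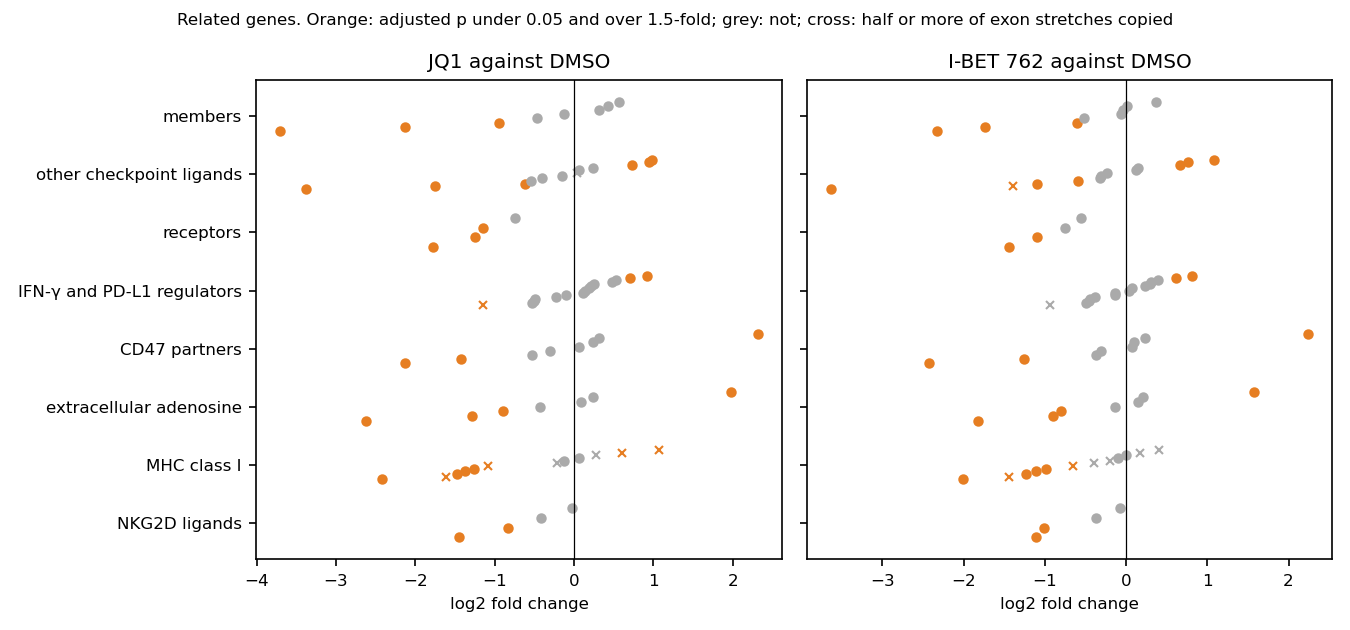
Log2 fold change (horizontal axis) of each tested gene of the 8 genes described and of the related lists, for JQ1 (left) and I-BET 762 (right) against DMSO; orange marks DEGs, grey the rest and crosses the genes with at least 50% of their sampled exon stretches copied elsewhere. The counted receptor, MHC class I and NKG2D ligand genes have no DEG to the right of 0. The list labelled other checkpoint ligands, which also holds the enzyme IDO1, has DEGs on both sides.

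For each of the 8 genes that was a DEG with at least 1 inhibitor, the 3 genes closest to it over the 10 libraries were listed, by the root mean square difference of log2 values after centring each gene on its own mean. CD276 was followed most closely by CNTNAP1 (0.0534), COL1A2 (0.0684), which encodes a chain of type I collagen, and AMOT (0.0706), while CD276 itself ranged over 1.27 log2 units. For CD274 the closest were RARA (0.131), which encodes a retinoic acid receptor, NFIX (0.14) and BCL9L (0.161), over a range of 1.10. LGALS9 was nearest to MMP19 (0.291), a matrix metalloproteinase, KLHL3 (0.346) and CPS1 (0.361), over a range of 4.37. PDCD1LG2 was nearest to HCAR1 (0.315), HOXA11-AS (0.362) and GASK1B-AS1 (0.365), over a range of 3.28. The last 2 are antisense genes, whose reads can be told from those of the other strand only if the counting used strand, and the strand setting is not given in the sources used here. No other member of the 8 was among the genes listed.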

How the data were processed

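Strand-specific total RNA libraries of SK-UT-1 cells were sequenced by the authors. Per the labels and the study's methods, reads were checked with FastQC 0.73, trimmed (Trimmomatic), aligned (Hisat2 2.2.1, hg38) and counted on Gencode V41 genes with featureCounts 2.0.3, counts were normalized with DESeq2 and outlier samples were excluded. The values were deposited on a log2 scale, with 1 added to each normalized count. After reversing the log2, 99.39% to 99.49% of low values were whole reads within 0.1, which gave each library's reads. Replicates differed by more than counting error (chi-square per gene 2.82 to 14.5 in 9 of 12 pairs and 23.2 to 26 in the 3 with JQ1 replicate 18).

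Libraries were grouped by treatment. Genes with at least 10 normalized counts in at least 3 libraries were fitted with limma 3.58.1 (R 4.3.3), with an intensity trend and all 3 groups in 1 model. The fit was tested on simulated data. Counting intervals are exact at 95%. Positions come from Gencode V44, and exon copies were searched as exact matches of 75 bases. Of the related lists, DEGs with both inhibitors were named, at most 4 a list, by mean absolute log2 fold change. The 8 genes and the lists were chosen with earlier results of these data known. Alternatives covered pseudocount, filter, scaling, model, fold threshold and each library left out. Limma-voom on the recovered reads was added after seeing the data, and count tests were not run because the table holds log2 values.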

Additional observations from a re-analysis of the deposited data

How the results depend on the processing

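No paired analysis was possible because every library has its own replicate number, and no number is shared between groups. Limma-voom on the recovered reads, chosen after seeing the data, called 5397, 4033 and 739 genes, against 5358 (JQ1 against DMSO), 3991 (I-BET 762 against DMSO) and 788 (JQ1 against I-BET 762). The edgeR and DESeq2 alternatives were not run, since the table holds log2 values. Of 510 alternative values, 480 kept their direction and their DEG call or stayed within 1.5 times the count. Among these, the adjusted p alone crossed 0.05 for PVR with JQ1 (0.103), NECTIN2 with JQ1 (0.00167) and NT5E with I-BET 762 (0.0186) under equal library totals, and without JQ1 replicate 19 for NECTIN2 (0.0288) and CD274 (0.0279) with JQ1. In the same order of comparisons, a mean normalized count of at least 100 left 3359, 2338 and 418 called genes and no value for CD274, PDCD1LG2 or LGALS9. No fold threshold gave 10633, 9073 and 4047, and a threshold of 2-fold gave 2958, 2108 and 206. Leaving out single libraries gave 5192 to 5409, 3809 to 4027 and 603 to 875.

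Equal library totals moved the median of all genes to -0.18, -0.10 and -0.09 on the log2 scale, and split the calls into 1222 higher and 4217 lower, 994 and 3064, and 172 and 782, against 1979 and 3379, 1329 and 2662, and 256 and 532. Under equal totals CD274 with JQ1 became a DEG (-0.64, adjusted p = 0.0192) and so did CD276 with I-BET 762 (-0.61), NT5E was no DEG between the inhibitors (0.53), and the sign turned for PVR with I-BET 762 (-0.090) and for CD47 between the inhibitors (-0.033). CD274 with I-BET 762 lost its call at a pseudocount of 5 (-0.56, adjusted p = 0.0281, under 1.5-fold) and when all genes above 0 were tested (-0.60, adjusted p = 0.0714). LGALS9 between the inhibitors lost it at a pseudocount of 5 (-0.71, adjusted p = 0.0563) and with only the 2 groups in the model (-1.38, adjusted p = 0.0777). The cause was not tested.

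With single libraries left out, CD274 with I-BET 762 ranged from -0.80 to -0.43, CD274 with JQ1 from -0.66 to -0.28, NT5E with JQ1 from 0.53 to 0.60 and LGALS9 between the inhibitors from -1.73 to -1.16. PVR with I-BET 762 ranged from -0.011 to 0.028, with the sign turned without DMSO replicate 15 (-0.011), I-BET 762 replicate 22 (-0.00019) or I-BET 762 replicate 23 (-0.0098). Depth limits LGALS9 and PDCD1LG2, whose treated libraries held 1 to 8 reads each, and CD274, at 31 to 75 reads.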
